A study of Mus musculus with 6 samples.

Results

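The genes described here are 5 transcription regulators that glucocorticoids are known to induce in other tissues: Tsc22d3, Zbtb16, Bcl6, Cebpb and Cebpd. They were chosen by name, with earlier results of these data known, and all 5 were among the 21461 genes of the deposited table. The table came from the arcuate nucleus (ARC) of the hypothalamus of 10-week-old male C57BL/6 mice, killed 24 h after an intraperitoneal injection. The groups were vehicle, dexamethasone (Dex, a synthetic glucocorticoid) at 10 mg/kg, and Dex at 10 mg/kg with 50 mg/kg Zj7, a small molecule given together with Dex. Each group had 2 libraries, 6 in all. Only the titles of the vehicle libraries call the mice fed, no library had Zj7 without Dex, and no label ties a library to a mouse of its own. The p-values therefore measure only the spread between these libraries, which may be technical.

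Glucocorticoids bind the glucocorticoid receptor, encoded by Nr3c1, which enters the nucleus and regulates genes through glucocorticoid response elements or by acting on other transcription factors. The 5 genes lie downstream of that step. Tsc22d3 encodes GILZ, a leucine zipper protein that binds NF-kB and AP-1 subunits, Zbtb16 encodes PLZF and Bcl6 encodes BCL6, both zinc finger repressors that recruit corepressors through a BTB domain, and Cebpb and Cebpd encode basic leucine zipper activators of acute-phase, inflammatory and metabolic genes.

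The libraries held between 50704789 and 61122938 counts. Neuron markers summed to between 5147 and 5214 CPM (counts scaled to library size with TMM factors) in the vehicle libraries. Their sums were higher in both treated groups, between 5422 and 5513 CPM with Dex and between 5393 and 5521 CPM with Dex+Zj7. Astrocyte markers summed to between 3017 and 3025 CPM with vehicle, 2817 and 3015 CPM with Dex, and 2844 and 2917 CPM with Dex+Zj7. The 8 markers of arcuate neurons summed to 177 and 279 CPM in the vehicle libraries. With Dex they summed to 224 and 225 CPM, and with Dex+Zj7 to 176 and 189 CPM. In the ARC of these mice 9 microglia markers summed to between 252 and 255 CPM with vehicle, 155 CPM in both Dex libraries and between 141 and 150 CPM with Dex+Zj7, and 8 endothelium markers to between 158 and 166, between 65.1 and 72.2 and between 106 and 135 CPM. Mural cell and oligodendrocyte sums were also lower in both treated groups than with vehicle, no marker was at 0, and genes with a 0 in any library had been removed before deposit. In dissected tissue, fewer cells of a type and less RNA per cell cannot be told apart, and the part of these shifts in the results below was not tested. The libraries of Nr3c1 ran from 93.4 to 102.7 CPM in the vehicle group, from 96.1 to 104.5 CPM after Dex and from 93.7 to 94.2 CPM after Dex+Zj7, with a log2 fold change for Dex against vehicle of 0.03 (SE 0.07, adjusted p = 0.814).

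In 2 of the groups the paired libraries lay far apart for some of the 5 genes. Over 15531 genes with a mean of at least 1 CPM, the central 95% of the difference between replicate 2 and replicate 1 on the log2 scale ran from -0.45 to 0.36 with vehicle, from -0.52 to 0.43 with Dex and from -0.38 to 0.46 with Dex+Zj7. In the Dex+Zj7 group this difference was -0.58 for Tsc22d3 and -0.64 for Zbtb16, both outside that range, and -0.32 for Bcl6, -0.23 for Cebpb and -0.21 for Cebpd, inside it. In the vehicle group it was -0.56 for Cebpb and -0.73 for Cebpd, again outside. With 2 libraries a group, neither can be named as the one that departs. Results that rest on these libraries are given with and without them.

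**Figure D1:**
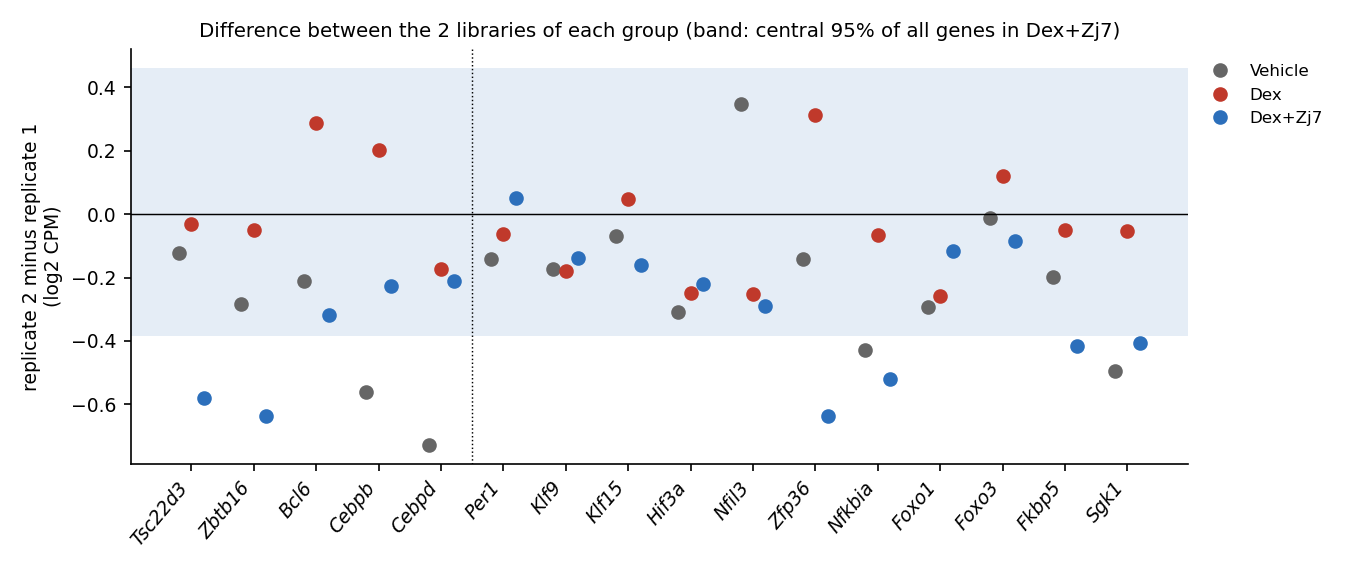
Log2 CPM of replicate 2 minus replicate 1 in each group (y axis) for the 5 genes, left of the dotted line, and 11 other glucocorticoid-induced regulators (x axis). The band is the central 95% of 15531 genes in the Dex+Zj7 group, from -0.38 to 0.46, and the Dex+Zj7 points of Tsc22d3 (-0.58) and Zbtb16 (-0.64) lie below it.

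Promoter windows are shown where RefSeq start sites were given, for 3 of the 5 genes, as the stretches in which a receptor site close to the start would lie. Not all windows of these genes are shown, and each one shown holds a marked match. Zbtb16 (chromosome 9, 48651797 to 48836225, minus strand) and Cebpd (chromosome 16, 15887286 to 15889545, plus strand) are named only. Tsc22d3 lies on the minus strand of chromosome X from 140539528 to 140600522, Bcl6 on the minus strand of chromosome 16 from 23965050 to 23988866 and Cebpb on the plus strand of chromosome 2 from 167688915 to 167690432 (GRCm38). Each sequence is the 250 bases before a start site, 5′ to 3′ on the gene's strand, from RefSeq on GRCm38.p6. Capitals mark TGTTCT, one arm of the glucocorticoid response element, in the first pair and TGACG, the core of the cyclic AMP response element, on either strand in the others. The first window ends just before the outermost start of Tsc22d3 and the second lies inside the annotated span of Bcl6.
Tsc22d3, chrX:140600523-140600772: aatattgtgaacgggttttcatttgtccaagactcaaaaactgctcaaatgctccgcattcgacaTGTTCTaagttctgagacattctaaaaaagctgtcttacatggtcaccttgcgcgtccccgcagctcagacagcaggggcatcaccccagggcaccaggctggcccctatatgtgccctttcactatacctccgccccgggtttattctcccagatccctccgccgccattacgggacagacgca
Bcl6, inner start, chr16:23981284-23981533: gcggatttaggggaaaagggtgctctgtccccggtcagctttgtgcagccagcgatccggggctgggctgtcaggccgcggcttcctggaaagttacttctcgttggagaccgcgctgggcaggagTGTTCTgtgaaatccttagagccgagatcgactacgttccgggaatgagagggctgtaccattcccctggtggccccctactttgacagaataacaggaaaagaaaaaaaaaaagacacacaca
Bcl6, outer start, chr16:23988853-23989102: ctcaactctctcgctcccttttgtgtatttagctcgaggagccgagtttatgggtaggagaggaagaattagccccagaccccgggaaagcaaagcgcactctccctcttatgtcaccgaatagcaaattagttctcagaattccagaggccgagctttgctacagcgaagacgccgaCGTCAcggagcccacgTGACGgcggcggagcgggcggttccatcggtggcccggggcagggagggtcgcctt
Cebpb, chr2:167688665-167688914: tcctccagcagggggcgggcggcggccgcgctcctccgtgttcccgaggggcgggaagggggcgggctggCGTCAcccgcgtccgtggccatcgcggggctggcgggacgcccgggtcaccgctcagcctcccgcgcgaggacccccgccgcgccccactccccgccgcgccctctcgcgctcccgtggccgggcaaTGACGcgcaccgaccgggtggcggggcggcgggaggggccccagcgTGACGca

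The TGTTCT match began 185 bases before that start of Tsc22d3 and 124 bases before the inner start of Bcl6, and 16.1% of 32851 mouse promoter windows of this length hold one on either strand. Of the windows shown, the TGACG matches began 180, 53 and 7 bases before the start of Cebpb and 72 and 56 bases before the outer start of Bcl6, against 17.8% of all windows with at least 1, and another Tsc22d3 window, not shown, held one 224 bases before its start. A full palindromic receptor site (GNACA and TGTNC with any 3 bases between) was in none of the 6 windows of these 3 genes, and in 0.387% of all windows. The C/EBP site TTGCNNAA was in none of the 6 and in 9.56% of all. The remaining Tsc22d3 window, also not shown, held none of these motifs. These are matches of letters only.

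Zbtb16, the PLZF gene, roughly doubled with Dex. Its level was 46.0 and 37.8 CPM in the vehicle libraries, 88.0 and 84.9 CPM in the Dex libraries, and 88.5 and 56.9 CPM in the Dex+Zj7 libraries. Both Dex libraries were above both vehicle libraries, and the Dex+Zj7 libraries were split, with replicate 1 at the Dex level and replicate 2 between the vehicle and Dex values. With edgeR's quasi-likelihood test, adjusted by Benjamini-Hochberg over 21461 genes, Dex against vehicle was 2.06-fold (log2 1.04, SE 0.18, 95% confidence interval 0.63 to 1.45, adjusted p = 0.0106). Leaving out vehicle replicate 2 gave log2 0.91 with an adjusted p of 0.0704, which ends the call.

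Bcl6, a repressor of cell cycle and immune genes, was also higher with Dex. It stood at 28.2 and 24.4 CPM with vehicle, 39.4 and 48.1 CPM with Dex, and 45.3 and 36.3 CPM with Dex+Zj7. All 4 treated libraries were above both vehicle libraries, and the Dex and Dex+Zj7 libraries were interleaved. Dex against vehicle was 1.67-fold (log2 0.74, SE 0.13, interval 0.43 to 1.04, adjusted p = 0.0120). Without vehicle replicate 2 the log2 value was 0.64 and the adjusted p 0.0874. The gene overlaps Gm31527, which is also in the table, and the sources used here do not say whether strand was used in counting.

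Cebpb, called higher with Dex, had the lowest level of the 5 with vehicle. It had 1.87 and 1.26 CPM with vehicle (108 and 68 counts), 3.18 and 3.66 CPM with Dex (161 and 201 counts), and 2.77 and 2.36 CPM with Dex+Zj7 (159 and 144 counts). The 3 groups did not overlap, with Dex+Zj7 between the other two. Dex against vehicle was 2.18-fold (log2 1.13, SE 0.24, interval 0.58 to 1.67, adjusted p = 0.0214). At this depth the exact Poisson 95% interval of the lowest library, 68 counts, ran from 52.8 to 86.2 counts, for counting error only. Without vehicle replicate 1 the log2 value was 1.44 (adjusted p = 0.0370), without vehicle replicate 2 it was 0.88 (adjusted p = 0.140) and without Dex replicate 2 it was 1.02 (adjusted p = 0.0617), and the last pair of omissions each end the call. The fold changes of Cebpb and Zbtb16 were within their errors of each other, and the order of the pair turned without vehicle replicate 2 or Dex replicate 2.

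Cebpd, the other C/EBP gene, did not pass the test in any comparison. Its libraries had 4.27 and 2.57 CPM with vehicle, 4.01 and 3.55 CPM with Dex, and 4.11 and 3.54 CPM with Dex+Zj7. All 4 treated libraries lay between the 2 vehicle libraries. Dex against vehicle was log2 0.14 (SE 0.24, interval -0.42 to 0.70, adjusted p = 0.766), so that a change of either sign within that interval could not be told apart from none. The sign depended on the vehicle library, with log2 0.56 without vehicle replicate 1 and -0.18 without replicate 2, neither past the threshold. Spidr overlaps Cebpd and is in the table.

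Tsc22d3, the GILZ gene, was the most abundant of the 5 and had the smallest fold change of the 4 whose Dex and vehicle libraries did not overlap, which did not pass the test. It had 92.4 and 84.8 CPM with vehicle, 124 and 122 CPM with Dex, and 128 and 85.6 CPM with Dex+Zj7. The Dex libraries were close together and above both vehicle libraries, while Dex+Zj7 replicate 1 was above both Dex libraries and replicate 2 was between the vehicle libraries. Dex against vehicle was 1.39-fold (log2 0.47, SE 0.15, interval 0.13 to 0.82, adjusted p = 0.0826). The same log2 value passed the threshold when the fit held only the vehicle and Dex libraries (0.47, adjusted p = 0.00858), or left out Dex+Zj7 replicate 1 (adjusted p = 0.00762) or replicate 2 (adjusted p = 0.00887). The call thus depended on which libraries entered the fit.

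**Figure D2:**
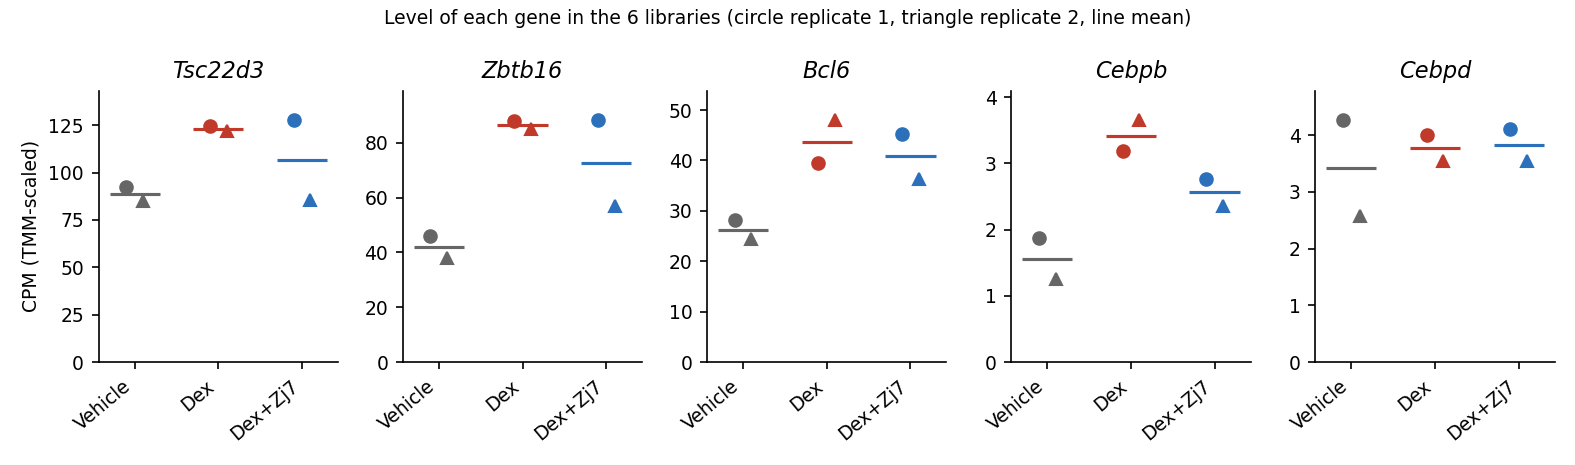
CPM of each gene (y axes, from 0, each with its own scale) in the vehicle, Dex and Dex+Zj7 libraries (x axes), with a circle for replicate 1, a triangle for replicate 2 and a line at the mean. The 2 Dex+Zj7 libraries of Tsc22d3 (128 and 85.6 CPM) and Zbtb16 (88.5 and 56.9 CPM) span most of the distance from the Dex to the vehicle values.

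With Dex, 3 of the 5 genes were called higher (Zbtb16, Bcl6 and Cebpb) and none lower, where 5.03% of all genes tested were called higher and 6.45% lower. In 4 of the 5 both Dex libraries exceeded both vehicle libraries, which held for 27.4% of all genes. The median log2 fold change of the 5 was 0.74, beside 0.00 over all genes. Because the 5 were chosen with earlier results of these data known, these shares are a description and no test of the set.

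None of the 5 passed the test between Dex+Zj7 and Dex, and each interval included 0. Dex+Zj7 against Dex was log2 -0.21 for Tsc22d3 (interval -0.55 to 0.14), -0.25 for Zbtb16 (-0.65 to 0.15), -0.10 for Bcl6 (-0.40 to 0.19), -0.42 for Cebpb (-0.94 to 0.10) and 0.02 for Cebpd (-0.53 to 0.57), with adjusted p values of 0.997 for Cebpb and over that for the others. None was called where 0.00466% of all genes were called higher, that is 1 gene, and none lower. Of 21461 genes, 1124 had an unadjusted p under 0.05, near the share that this threshold passes when no gene differs. Cebpb was the one gene of the 5 whose Dex+Zj7 libraries both lay below both Dex libraries, as did those of 14.9% of all genes.

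For the leucine zipper and PLZF genes this comparison depended on which Dex+Zj7 library entered. With replicate 1 alone Tsc22d3 was at log2 0.05 against Dex, and with replicate 2 alone at -0.52 (adjusted p = 0.213). Zbtb16 gave 0.02 with replicate 1 alone and -0.60 with replicate 2 alone (adjusted p = 0.293). Bcl6 moved less, from 0.04 to -0.27, and Cebpb kept its sign, from -0.32 to -0.53. In every fit that leaves out a library, the lone library of that group is assumed to vary like the other groups.

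Against vehicle, 2 of the 5 genes were called higher with Dex+Zj7 and none lower. Zbtb16 was 1.73-fold higher (log2 0.79, SE 0.18, adjusted p = 0.0357) and Bcl6 1.55-fold higher (log2 0.63, SE 0.13, adjusted p = 0.0273), where 3.40% of all genes were called higher and 3.97% lower. Cebpb was at log2 0.71 (SE 0.24, adjusted p = 0.110), Tsc22d3 at 0.27 (SE 0.15, adjusted p = 0.319) and Cebpd at 0.16 (SE 0.24, adjusted p = 0.750). For Zbtb16, Bcl6 and Cebpb both Dex+Zj7 libraries exceeded both vehicle libraries, which 29.4% of all genes showed. Without Dex+Zj7 replicate 2, Tsc22d3 was called at log2 0.52 (adjusted p = 0.0237) and Zbtb16 stood at 1.07 (adjusted p = 0.00684). Without replicate 1, Tsc22d3 was at -0.05 (adjusted p = 0.811), and Zbtb16 at 0.44 (adjusted p = 0.127) and Bcl6 at 0.47 (adjusted p = 0.152) lost their calls. Leaving out either vehicle library also ended both calls, with adjusted p between 0.0701 and 0.200. The 3 comparisons share libraries, so their values are not independent of each other.

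**Figure D3:**
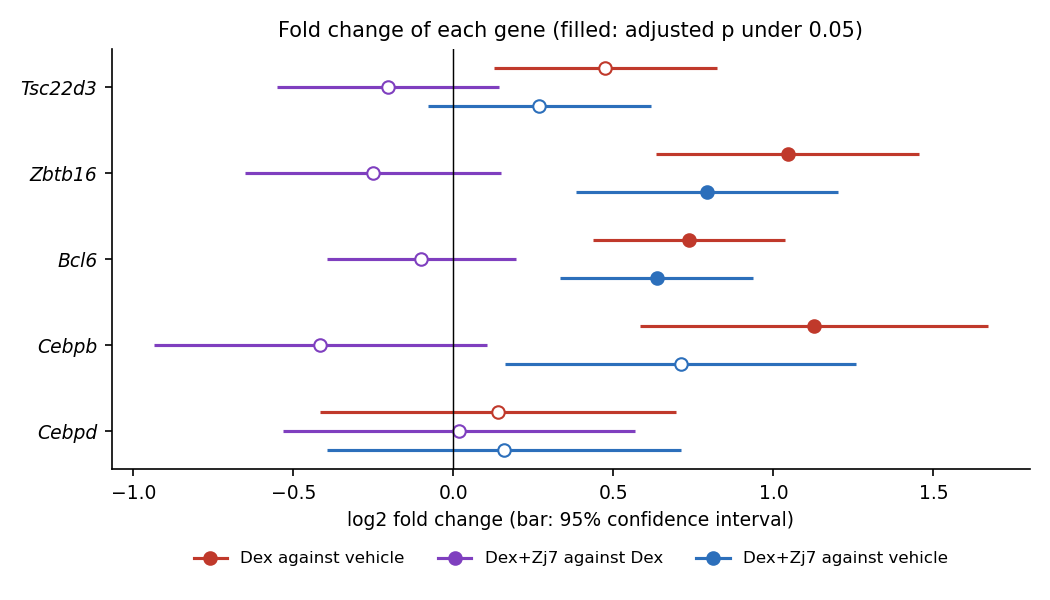
Log2 fold change (x axis) of each gene (y axis) in the 3 comparisons, with bars for the 95% confidence interval and filled points where the adjusted p was under 0.05. Filled points are Zbtb16, Bcl6 and Cebpb for Dex against vehicle and Zbtb16 and Bcl6 for Dex+Zj7 against vehicle, and every Dex+Zj7 against Dex interval includes 0.

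**Figure D4:**
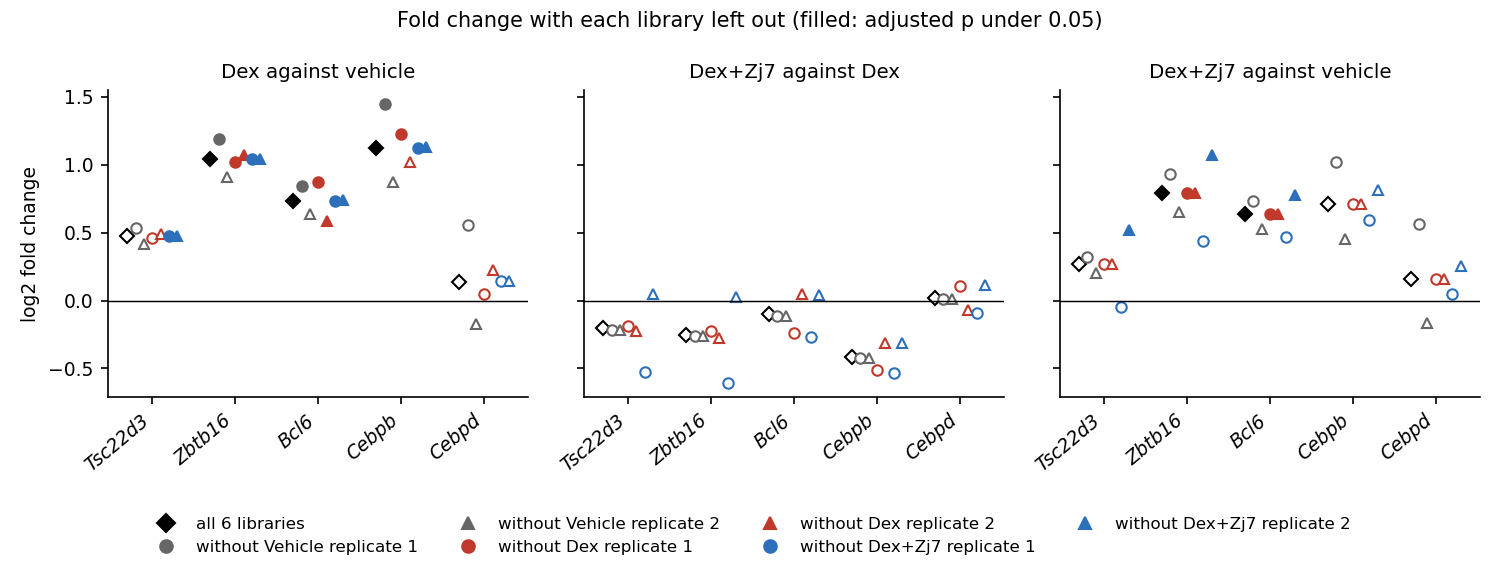
Log2 fold change (y axis) of each gene (x axis) in the 3 comparisons with all 6 libraries (diamond) and with each library left out (coloured circles and triangles), filled where the adjusted p was under 0.05. For Dex+Zj7 against Dex, the values of Tsc22d3 and Zbtb16 run from 0.05 and 0.02 to -0.52 and -0.60, depending on which Dex+Zj7 library is left out.

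Replicate 2 was the lower library for most glucocorticoid-induced regulators in all 3 groups, with smaller differences in the Dex group. For the 5 genes it was lower in 5 with vehicle, 3 with Dex and 5 with Dex+Zj7, with median differences of -0.28, -0.03 and -0.32 on the log2 scale. Of 11 other such regulators it was lower for 10, 8 and 10, with medians of -0.17, -0.06 and -0.22. Among 951 genes called higher with Dex at a mean of at least 1 CPM it was lower for 68.0%, 54.6% and 61.1%, beside 52.1%, 49.6% and 50.4% of all 15531 genes. The 1185 genes called lower with Dex at that mean went the other way, with replicate 2 lower for 40.1%, 45.2% and 36.2%. Fkbp5, a cochaperone of the receptor, had 36.0 and 31.4 CPM with vehicle and 125 and 93.9 CPM with Dex+Zj7. These 11 regulators were listed with earlier results of these data known, and their calls were not tested with single libraries left out. Of the 11, 6 were called higher with Dex (54.5%, beside 5.03% of all genes) and none lower, with a median log2 fold change of 0.65. They included Fkbp5 at 1.89 (adjusted p = 0.000326), the Krüppel-like factor Klf15 at 0.80 (adjusted p = 0.000896), the hypoxia-inducible factor subunit Hif3a at 1.03 (adjusted p = 0.00322) and the kinase gene Sgk1 at 1.19 (adjusted p = 0.00487).

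Levels between genes were compared as FPKM, which is per transcript length. With vehicle the order was Tsc22d3 at 35.7 FPKM, Bcl6 at 6.59, Zbtb16 at 5.10, Cebpd at 1.40 and Cebpb at 0.950 FPKM, where only the libraries of the last pair overlapped. With Dex the libraries of Bcl6 (10.9 FPKM) and Zbtb16 (10.4 FPKM) overlapped, and Cebpb (2.03 FPKM) stood above Cebpd (1.52 FPKM) without overlap. With Dex+Zj7 the last pair overlapped again, at 1.54 FPKM for Cebpd and 1.52 for Cebpb. Tsc22d3 was above 92.3% of all genes with vehicle and Cebpb above 34.6%.

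Within their families, the 5 genes were set beside all measured relatives. Of 5 measured C/EBP genes (6 listed), Cebpb was the one called higher with Dex, and none was lower, with a median of 0.14. Cebpa was at log2 0.24 (adjusted p = 0.299) from a vehicle mean of 4.77 CPM, and Cebpg, which has no activation domain, at -0.13 (adjusted p = 0.484) from 34.2 CPM. Ddit3, the stress-induced family member CHOP, was at log2 0.05. In the TSC22 domain family, the relatives of GILZ, Tsc22d4 rose by log2 0.32 (SE 0.06, adjusted p = 0.0143) from 64.1 CPM, and stood at 0.34 with Dex+Zj7 (adjusted p = 0.0173). Tsc22d1 at 0.11 and Tsc22d2 at 0.14 did not pass. Of 45 BTB zinc finger genes 3 were called higher, Zbtb16, Bcl6 and Zbtb7b (log2 0.61, adjusted p = 0.0155), or 6.67%, and 3 lower, Hic1 (-1.07, adjusted p = 0.0322), Zbtb37 (-0.34, adjusted p = 0.0165) and Zbtb21 (-0.29, adjusted p = 0.0490), with a median of -0.05. These shares are near the 5.03% and 6.45% of all genes. For Dex against vehicle, no BTB, TSC22 or C/EBP gene was called without vehicle replicate 2, and without vehicle replicate 1 the BTB calls fell from 6 to 2 and the TSC22 call ended. The TSC22 family had 2 calls without either Dex+Zj7 library, and the C/EBP call ended also without Dex replicate 2. With Dex+Zj7 against vehicle, 3 BTB genes were called higher and 2 lower, and no C/EBP gene was called. These 5 BTB calls became fewer without any one vehicle or Dex+Zj7 library, and the Tsc22d4 call ended without any one of them. Between Dex+Zj7 and Dex no gene of these families, or of the lists that follow, was called.

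**Figure D5:**
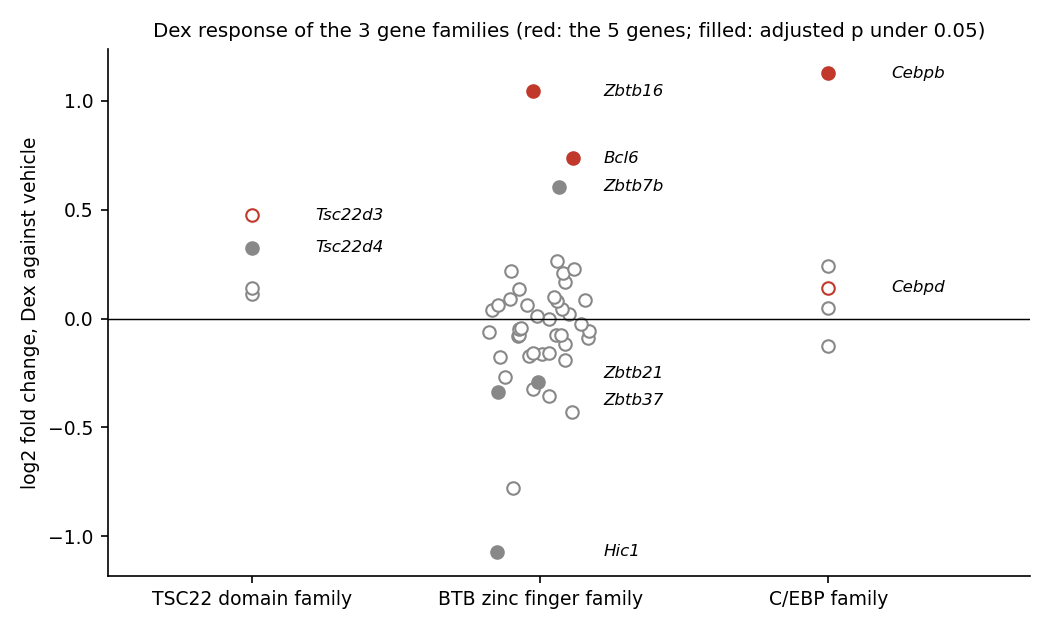
Log2 fold change for Dex against vehicle (y axis) of every measured gene of the TSC22 domain, BTB zinc finger and C/EBP families (x axis), red for the 5 genes and filled where the adjusted p was under 0.05. Zbtb16 (1.04), Bcl6 (0.74) and Cebpb (1.13) are the 3 highest values, and Hic1 (-1.07) is the lowest.

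The genes of proteins that PLZF and BCL6 recruit and that GILZ binds were measured too. These lists and those that follow were also drawn up with earlier results of these data known. Of 18 corepressor genes, Tbl1x, a subunit of the NCoR complex, was called higher with Dex (log2 0.23, adjusted p = 0.0446) and none lower, with a median of 0.00, and with Dex+Zj7 Hdac3, a histone deacetylase of that complex, was called (0.21, adjusted p = 0.0498). A single call of 18, or 5.56%, is near the 5.03% of all genes, and the count with Dex became 3 without Dex replicate 2 and 0 without any one of the other 5 libraries. The count with Dex+Zj7 became 0 without any one vehicle or Dex+Zj7 library. Of 10 GILZ partner genes, Jun, an AP-1 subunit, fell by 0.48 on the log2 scale (adjusted p = 0.00920) and none was called higher. That is 10% called lower, beside 6.45% of all genes. Pparg, a nuclear receptor gene of that list, was at log2 0.72 without passing (adjusted p = 0.182). With Dex+Zj7 against vehicle, Jun was at -0.53 (adjusted p = 0.00829) and its partner Fos at -1.07 (adjusted p = 0.0248). These 2 of 10 called lower are 20%, beside 3.97% of all genes. The calls of the GILZ partner genes were not tested with single libraries left out.

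Genes listed as repressed by BCL6, in lymphocytes or other cells, moved in both directions. Of the 12 measured, of 16 listed, 3 were called higher with Dex (25%) and 2 lower (16.7%), with a median of -0.10. Of all genes, 5.03% were called higher and 6.45% lower. The calls of this list and the next were also not tested with single libraries left out. Cdkn1a, the cyclin-dependent kinase inhibitor p21, rose from 10.7 ± 0.520 to 94.9 ± 1.11 CPM (SD, n = 2 each), log2 3.15 (adjusted p = 0.000291), and was at 82.9 and 50.1 CPM in the Dex+Zj7 libraries, split like Zbtb16. Bcl2l1, an antiapoptotic gene, rose by 0.44 (adjusted p = 0.00661) and Id2, an inhibitor of helix-loop-helix factors, by 0.43 (adjusted p = 0.00767). The cyclin genes Ccnd1 (-0.62, adjusted p = 0.00993) and Ccnd2 (-0.42, adjusted p = 0.0123) were lower.

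Among 15 listed genes that C/EBP factors activate in inflamed tissue, 8 were measured. Of the 8, 4 were called lower with Dex (50%) and none higher, where 6.45% of all genes were called lower and 5.03% higher. The median was -1.28. The 4 were Lcn2 (lipocalin 2, -2.02, adjusted p = 0.0119), Nos2 (inducible nitric oxide synthase, -1.78, adjusted p = 0.0278), Cd14 (a lipopolysaccharide coreceptor of myeloid cells, -1.14, adjusted p = 0.0210) and Tnfaip6 (-0.74, adjusted p = 0.0363). Hp (-1.42), C3 (-0.52), Ptgs2 (-1.55) and Ptx3 (0.35) did not pass, with adjusted p between 0.101 and 0.638. Markers of microglia fell with them, 6 of 9 called lower with a median of -1.43, and of endothelium, 7 of 8 called lower with a median of -1.25, and their part in these values was not tested. With Dex+Zj7 only Lcn2 of the 8 was called (-2.01, adjusted p = 0.0166), where 3.97% of all genes were called lower. Nos2, Hp and Ptx3 were under 1 CPM in every library. In the Dex libraries Nos2 had 0.146 and 0.178 CPM and Hp 0.0546 and 0.118 CPM. The median of the 8 thus rests in part on genes near the floor.

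The genes nearest to each of the 5 in pattern, by the root mean square difference of centred log2 CPM over the 6 libraries among 15530 genes, are given as a description. They were Cdc45, Gm35365 and Eva1c for Tsc22d3, Rad18, Aff1 and Stxbp3 for Zbtb16, Tnnt2, Gm39463 and Lars2 for Bcl6, Malat1, Gm15564 and Corin for Cebpb, and Zpbp, Gm31566 and Nox4 for Cebpd, at differences between 0.0516 and 0.113. None of the 5 was among the nearest 3 of another.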

How the data were processed

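RNA from the dissected ARC was made into stranded mRNA libraries. Per the labels and methods, the authors removed low-quality reads, adapters, contaminant DNA and PCR duplicates, and used HISAT2 2.1.0 and Bowtie2 2.3.4.1 for mapping to mm10 and StringTie 2.1.3b for transcript assembly. The deposited read counts are unnormalized and the deposited FPKM values are scaled to transcript length and mapped reads; genes at 0 in any sample were excluded by the authors, which can remove genes that fell to 0. TPM, normalized log2 values, group means and the authors' own fold changes and p-values are also in the table and were not used. Counts were tested with edgeR 4.0.16 (R 4.3.3, TMM, quasi-likelihood test, all 6 libraries in 1 fit). Benjamini-Hochberg adjustment was over 21461 genes, with a call at an adjusted p under 0.05. The code was also run on simulated counts drawn independently for each gene. Those counts hold no shift shared by the genes of a library, so they do not show how the test handles such shifts. FPKM served for levels between genes and for limma 3.58.1 on log2(FPKM + 0.1). DESeq2 1.42.0, edgeR's exact test, limma-voom, other scalings, a filter on low counts, the 2 groups alone and a replicate block were alternatives. So were leaving out each library and the call rule stated in the study's methods (log2 change of at least 1.5, unadjusted p under 0.05). Named were the 5 genes, called genes of each list (at most the 4 with the smallest p; all 6 of the BTB list, the others chosen after their values were seen), relatives and the 3 nearest genes in pattern. The genes and lists were chosen with earlier results of these data known, and 2 opposite-strand entries were left out of the BTB list after their values had been seen. Replicates of a group differed by more than sampling noise (chi-square per gene between 7.49 and 16.5).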

Additional observations from a re-analysis of the deposited data

How the results depend on the processing

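Under the alternatives 215 values of the 5 genes stayed on their side of the threshold, 8 passed it newly and 17 lost it, and no call turned direction. Tsc22d3 for Dex against vehicle was called with edgeR's exact test (0.47, adjusted p = 0.0203), after filtering low counts (0.48, adjusted p = 0.0391), in the 2 groups alone (0.47) and with the replicate block (0.48, adjusted p = 0.0266). Cebpb for Dex+Zj7 against vehicle was called with the exact test (0.71, adjusted p = 0.0347). With limma on FPKM, Zbtb16 (0.73, adjusted p = 0.105) and Bcl6 (0.62, adjusted p = 0.0837) lost their calls for Dex+Zj7 against vehicle. The call rule stated in the study's methods, read as a log2 change of at least 1.5, kept none of the 5 genes' calls. Zbtb16 (1.04), Bcl6 (0.74) and Cebpb (1.13) for Dex, and Zbtb16 (0.79) and Bcl6 (0.63) for Dex+Zj7, were all under 1.5. As plain folds, in the same order, they were 2.06, 1.67, 2.18, 1.73 and 1.55, all above 1.5. A rule read as a plain fold was not run over all genes. The cause of the other changes was not tested.

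Leaving out each library gave, for Dex against vehicle, 0.42 to 0.54 for Tsc22d3, 0.91 to 1.19 for Zbtb16, 0.58 to 0.87 for Bcl6, 0.88 to 1.44 for Cebpb and -0.18 to 0.56 for Cebpd. For Dex+Zj7 against Dex the ranges were -0.52 to 0.05, -0.60 to 0.02, -0.27 to 0.05, -0.53 to -0.31 and -0.09 to 0.11, and for Dex+Zj7 against vehicle -0.050 to 0.52, 0.44 to 1.07, 0.47 to 0.78, 0.45 to 1.02 and -0.17 to 0.56, in the same order.

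Over all genes, the 3 comparisons had 2464, 1 and 1583 calls. These became 3716, 96 and 3007 with the exact test, and 1477, 0 and 620 with limma on FPKM. The rule stated in the study's methods gave 484, 102 and 412. These are fewer, even together, than the differentially expressed genes the paper reports, and the reason was not tested. For Dex+Zj7 against Dex, DESeq2 gave 66 calls and the 2 groups alone 0. Leaving out each library gave 538 to 2397, 0 to 3 and 311 to 2330. No label says that a replicate number marks a shared litter or day. The deviations of same-numbered libraries correlated at 0.32 for vehicle and Dex, 0.02 for vehicle and Dex+Zj7 and -0.01 for Dex and Dex+Zj7; with 2 numbers a group this does not settle whether they are paired, and the values of the report come from fits without the block. With the replicate block the counts were 3666, 0 and 2612.

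Depth limits Cebpb and Cebpd most, with 68 to 201 and 139 to 247 counts a library.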
